A study of Mus musculus with 4 samples.

Results

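Closely spaced CTCF binding sites of mouse liver are described here. A site was close when its midpoint lay within 10 kb of the midpoint of the nearest other site, after overlapping regions of the ZT0 and ZT12 lists on autosomes had been merged into 1 union list. Close sites numbered 3078 of 11125 union sites (27.7%, 95% Wilson interval 26.8 to 28.5%), and 8047 sites had no neighbour that near. The members were thus chosen by the listed positions at both timepoints, so cluster size, spacing and sharing between timepoints are given as descriptions and support nothing else.

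CTCF is a zinc finger protein that binds an asymmetric DNA motif. Cohesin, a ring complex that extrudes loops of chromatin, is held up at CTCF sites mainly when it meets the motif from one side, so that loop anchors often carry motifs that point towards each other. Clusters of CTCF sites are known from boundaries of chromatin domains, from imprinted loci and from gene families.

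The data are CTCF ChIP-seq of whole liver from wild-type male C57BL/6 mice, which were 8 weeks old when their time in 12 h of light and 12 h of darkness began, with free access to food. The ZT0 group was collected at lights on and the ZT12 group at lights off, with 2 samples each. Chromatin was fixed with 1% formaldehyde for 5 min and precipitated with 10 µg of antibody, without any other treatment. Each timepoint has 1 list of positions that pools its replicates, so neither depth nor spread between samples could be read from it. The authors describe their liver replicates as pools, and ChIP-seq tissue as dissected in the manner used for Hi-C. Pooling of livers would hide spread between mice. The autosomal lists held 10038 regions at ZT0 and 6756 at ZT12. A union site with regions from both lists is called shared (5657 sites), and the others ZT0-only (4378) or ZT12-only (1090). Absence from the shorter ZT12 list is not a measured loss of binding. The lists are also much shorter than the set of CTCF sites described for these samples, and peaks outside them were not analysed here. Closeness, isolation and sharing all depend on list length, so a site isolated or listed at 1 timepoint here may have a neighbour or partner outside the lists.

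Close sites formed 1387 clusters, in which each neighbour lay within 10 kb of the next. Pairs made up 1158 clusters. A further 178 clusters held 3 sites, 42 held 4, 6 held 5, 2 held 9 and 1 held 12. The 229 clusters of 3 or more sites contained 762 of the close sites. The median distance between the outer midpoints of a cluster was 4.91 kb (quartiles 2.60 and 7.86 kb). Among the 1691 neighbouring pairs within clusters, 123 were up to 1 kb apart, 252 were 1 to 2 kb, 610 were 2 to 5 kb and 706 were 5 to 10 kb apart. The shortest distance was 453.5 bp.

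At the 10 kb threshold the values ran on without a gap. The last pair inside was 10000 bp apart, joining the start of Aars2, a mitochondrial alanyl-tRNA synthetase, to a site further along the gene, both shared. The pairs next inside were 9977 bp apart near 0610010K14Rik and 9972 bp apart near Shmt2, a mitochondrial enzyme of serine and glycine metabolism. The first pairs outside were 10007 bp apart near Mcf2l, 10015.5 bp apart near Ankrd45 and 10018.5 bp apart near Rcvrn.

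Chromosomes differed in their share of close sites. Chromosome 11 had the highest share, with 325 of 963 union sites (33.7%, 30.8 to 36.8%), and chromosome 16 the lowest, with 59 of 339 (17.4%, 13.7 to 21.8%). Close sites were also densest on chromosome 11, at 2.67 per Mb against 0.600 per Mb on chromosome 16. All union sites, whose density bears on closeness by construction, numbered 7.90 and 3.45 per Mb. These chromosomes carry 13.6 and 6.86 protein-coding genes per Mb. Chromosome 7, also with 13.6 genes per Mb, had 29.9% of its sites close, at 1.65 per Mb. The part of gene density in these differences was not tested.

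The largest clusters were tandem arrays of near-identical DNA. The cluster of 12 sites lay at chr4:88419471-88452382 (mm9, as are all coordinates here) among the gene copies around Ifnz, interferon zeta, which belongs to the type I interferons of antiviral defence. All 12 sites were shared and had a transcription start nearer than 1 kb. They repeated every 2.82 to 2.99 kb, 1 site per gene copy, with the motif on the minus strand opposite to the direction of the genes. Over 100 bp on each side of the motif, copies were 98.5 to 100% identical, and 8 of the 12 had exactly the same 219 bp. All 12 held the match GGGCCACCGGAGGGCAGCA. Regions there were 635 to 753 bp wide at ZT0 and 548 to 666 bp at ZT12, against a median of 326 and 291 bp for all close sites.

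The arrays of 9 sites lay on chromosome 6 between Ezh2, the methyltransferase of Polycomb repressive complex 2, and Pdia4, a protein disulfide isomerase of the endoplasmic reticulum. No protein-coding gene was annotated within either array. The array at chr6:47601051-47636036 was shared at all 9 sites, spaced 4.12 to 4.36 kb. The array at chr6:47689828-47728711 was shared at 8 sites and ZT0-only at its last, spaced 4.31 to 6.23 kb. All 18 motifs were on the minus strand, and 16 of them had the same 19 bp. The exceptions were the site at either outer edge. The first site was narrower (389 bp at ZT0 and 229 bp at ZT12) than the copies beside it, and the last was 241 bp wide at ZT0, the narrowest of its array. The edge sites and an inner copy of each array are printed with the motif match in capitals and 20 bp on either side, 5′ to 3′ on the strand of the motif, to show where the edges depart from the repeat. Coordinates and strands on each line are those of the capitals.
first array, outer edge (chr6:47601201-47601219, minus strand): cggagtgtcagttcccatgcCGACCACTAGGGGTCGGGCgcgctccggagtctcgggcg
first array, site 5 (chr6:47618344-47618362, minus strand): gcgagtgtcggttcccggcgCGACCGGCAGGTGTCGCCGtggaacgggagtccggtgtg
second array, site 3 (chr6:47698844-47698862, minus strand): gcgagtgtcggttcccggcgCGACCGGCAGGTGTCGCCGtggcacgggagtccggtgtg
second array, outer edge (chr6:47728588-47728606, minus strand): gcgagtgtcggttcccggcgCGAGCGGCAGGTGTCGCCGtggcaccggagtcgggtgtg

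The 3 arrays held 30 close sites. The authors kept reads by mapping quality, and how reads from copies this alike were assigned was not tested, so the number of copies bound cannot be read from the lists. Without the arrays, 3048 sites were close, a count chosen after seeing the data.

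Copies were uncommon outside the arrays. Of 1652 neighbouring close pairs with a motif in each site, 41 (2.48%) were at least 60% identical over 100 bp on either side of the motif, and 25 of these lay in the arrays. The median identity outside the arrays was 25.5%. Of 9114 neighbouring pairs with motifs more than 10 kb apart, 63 were at least 60% identical, and the median identity was also 25.5%. Of the 16 close pairs of copies outside the arrays, 13 were tandem, 3 convergent and 0 divergent. Of the tandem ones, 2 made up the cluster of 3 next to the Ifnz array, at chr4:88403368-88409870, spaced 2.93 and 2.94 kb and 97 and 77.5% identical. The match of that array was found in 14 union sites, so these pairs may belong to the same repeat.

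A set of 5 such pairs, picked out after their values were seen, shared a spacing of 7.88 to 8.02 kb. They lay on chromosomes 1, 7 (at 2 places), 13 and 14, near Cntnap5b, 1700049G17Rik, Mrgprb5, Mrs2 and Gm8113, and all 5 were tandem. Within a pair, identity was 97 to 100% over 100 bp on the 3′ side of the motif but 40 to 48% on the 5′ side. Their commonest match, CCGCCACTAGATGGTGCTA, was carried by 7 of the 10 sites. It was also the most frequent exact match among all union sites, found in 24, of which 12 were close and 22 shared. Between sites of different pairs, identity was 57.5 to 99% (median 71.5%). The pair near Mrs2 and the pair near Cntnap5b are printed with 20 bp on either side of the match, as examples from different chromosomes. The Mrs2 pair was shared at both sites. The Cntnap5b pair was listed at ZT12 for its first site and at ZT0 for its second.
Mrs2 pair, first (chr13:25099292-25099310, plus strand): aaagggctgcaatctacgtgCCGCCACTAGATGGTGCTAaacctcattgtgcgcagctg
Mrs2 pair, second (chr13:25107286-25107304, plus strand): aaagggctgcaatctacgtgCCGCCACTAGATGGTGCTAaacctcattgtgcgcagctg
Cntnap5b pair, first (chr1:102120684-102120702, minus strand): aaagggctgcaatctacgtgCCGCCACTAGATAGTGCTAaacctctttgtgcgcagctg
Cntnap5b pair, second (chr1:102128676-102128694, minus strand): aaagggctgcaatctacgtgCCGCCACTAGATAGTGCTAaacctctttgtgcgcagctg

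Apart from the arrays, the largest clusters held 5 sites, with neighbours at most 32.5% identical. One lay at chr12:114454141-114462750, between Tmem121 and the constant genes of the immunoglobulin heavy chain. Its first site was 30.2 kb from the Tmem121 start, and its last was 60.8 kb from Ighg2c. All 5 motifs were on the plus strand, 1.04 to 3.31 kb apart. Sites 2 and 4 were shared, and the others ZT0-only. Site 4 was the widest, with 704 bp at ZT0 and 476 bp at ZT12, while the ZT0-only sites were 307, 222 and 321 bp wide. Identity between neighbours was 20 to 30%, below the 60% counted as a copy. Sites of the cluster that are not neighbours were not compared.
Tmem121 side, site 1 (chr12:114454326-114454344, plus strand): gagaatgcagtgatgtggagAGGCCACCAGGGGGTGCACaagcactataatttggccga
Tmem121 side, site 2 (chr12:114456294-114456312, plus strand): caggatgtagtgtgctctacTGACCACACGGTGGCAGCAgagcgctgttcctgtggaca
Tmem121 side, site 3 (chr12:114459616-114459634, plus strand): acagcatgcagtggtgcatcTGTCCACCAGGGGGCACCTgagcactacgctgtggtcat
Tmem121 side, site 4 (chr12:114460689-114460707, plus strand): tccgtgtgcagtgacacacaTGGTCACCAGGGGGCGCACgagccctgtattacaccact
Tmem121 side, site 5 (chr12:114462604-114462622, plus strand): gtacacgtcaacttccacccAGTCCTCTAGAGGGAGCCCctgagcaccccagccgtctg

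Other clusters of 5 also had all motifs on a single strand. In introns of Ksr2, a scaffold of Ras signalling, 5 plus-strand sites spread over 19.6 kb (chr5:117947053-117966992). Site 4, listed at ZT0 alone, had a motif below the stricter score. At Trpv4, a calcium-permeable channel, and the neighbouring BC057022, 5 plus-strand sites covered 21.0 kb (chr5:115054627-115075934), with 2 shared, 2 ZT0-only and 1 ZT12-only. Along Grn, which encodes progranulin, Fam171a2 and Itga2b, the platelet integrin alpha chain, 5 minus-strand sites covered 25.1 kb (chr11:102292248-102317660). Of these, 3 were shared and 2 ZT0-only. The Ksr2 motifs are printed because 4 of these sites were shared, the most among the clusters of 5.
Ksr2 site 1 (chr5:117947227-117947245, plus strand): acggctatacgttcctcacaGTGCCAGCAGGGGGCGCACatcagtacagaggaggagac
Ksr2 site 2 (chr5:117955346-117955364, plus strand): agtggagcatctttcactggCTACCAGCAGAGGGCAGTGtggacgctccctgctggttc
Ksr2 site 3 (chr5:117956567-117956585, plus strand): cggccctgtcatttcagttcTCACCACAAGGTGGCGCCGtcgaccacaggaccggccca
Ksr2 site 4 (chr5:117959734-117959752, plus strand): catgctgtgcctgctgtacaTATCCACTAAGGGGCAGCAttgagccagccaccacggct
Ksr2 site 5 (chr5:117966827-117966845, plus strand): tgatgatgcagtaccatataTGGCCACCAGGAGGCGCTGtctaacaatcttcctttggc

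The remaining clusters of 5 pointed outwards, with 2 minus-strand motifs followed by 3 plus-strand motifs. They lay in Tbc1d16, a GTPase-activating protein of Rab proteins (chr11:119048901-119068389, 3 shared and 2 ZT0-only), and in Ctif, a translation initiation factor (2 shared, 2 ZT0-only and 1 ZT12-only). The most compact clusters of 4 were mixed in strand. The 4 sites in introns of Myo18a, an unconventional myosin, lay within 5.58 kb in the order plus, minus, plus, plus. Those from an exon of Fbxo2, a ubiquitin ligase subunit, into the sequence beyond it had the same order within 6.61 kb. At Pdzd7, a scaffold protein of sensory hair cells, the order was plus, minus, minus, plus within 6.79 kb. Only the first Pdzd7 site, 19 bp from a start, was shared, and it was the widest, with 590 bp at ZT0.

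For orientation, pairs were read from left to right along the chromosome. A pair is tandem when both motifs lie on the same strand, convergent when plus is followed by minus, so that the motifs point towards each other, and divergent when minus is followed by plus. Of 1652 close pairs with motifs, 904 were tandem (54.7%, 52.3 to 57.1%), 514 divergent (31.1%, 28.9 to 33.4%) and 234 convergent (14.2%, 12.6 to 15.9%). Tandem pairs were on the plus strand in 420 cases and on the minus strand in 484. Neighbours more than 10 kb apart were 46.0% tandem, 25.6% divergent and 28.5% convergent over 9114 pairs. The tandem share was 60.5% up to 1 kb, 61.1% from 1 to 2 kb and 57% from 2 to 5 kb. From 5 to 10 kb it was 49.6%. Of the 600 pairs at 2 to 5 kb, 28 were copies of at least 60% identity, mostly from the tandem arrays. Shares by spacing were not recounted without them. Leaving out all such copies, 53.8% (51.3 to 56.2%) of close pairs were tandem. Pairs 10 to 20 kb apart were 50.5% tandem and 31.4% divergent. Pairs of a cluster share sites, so intervals cover counting error only. Along a chromosome, changes from plus to minus and back must alternate, so a low convergent share among close neighbours goes with a high one further apart.

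The convergent share changed with spacing. It was 21.0% (14.7 to 29.2%) up to 1 kb, 14.2% from 1 to 2 kb, 12.0% (9.64 to 14.8%) from 2 to 5 kb and 14.8% from 5 to 10 kb. Beyond the threshold it was 18.1% from 10 to 20 kb, 22.6% from 20 to 50 kb and 31.7% from 50 to 200 kb. The lowest convergent share thus fell at 2 to 5 kb, though its interval overlaps those of the classes on either side. That class also holds most pairs of the arrays, all of them tandem, which lowers its convergent share. The divergent share went from 18.5% (12.5 to 26.4%) up to 1 kb to 35.6% (32.1 to 39.2%) at 5 to 10 kb, higher than in any wider class of spacing, although the interval overlaps those of 10 to 20 kb (28.5 to 34.3%) and 20 to 50 kb (28.7 to 32.7%).

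Longer clusters had the same leaning. In 225 clusters of 3 or more sites with a motif in each, 91 changed strand once from minus to plus (40.4%, 34.2 to 47.0%), 71 kept to 1 strand (31.6%), 23 changed once from plus to minus (10.2%, 6.91 to 14.9%) and 40 changed more than once. Among the 175 clusters of exactly 3, the orders minus, plus, plus (39 clusters) and minus, minus, plus (34 clusters) together with all minus (34 clusters) and all plus (23 clusters) were the most frequent. Each other order had 10 to 12 clusters.

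The closest pair of each orientation illustrates the short end of the range. The closest convergent pair, 453.5 bp between midpoints, lay between genes at chr2:75802624-75803323 and nearest to the start of Ttc30a2. Both its sites were ZT0-only, 211 and 282 bp wide, with motifs below the stricter score. The closest tandem pair, 477.5 bp apart at chr12:57782089-57782818, lay upstream of Pax9, a paired-box transcription factor. It joined a ZT12-only site of 222 bp, with a motif below the stricter score, to a ZT0-only site of 283 bp. The closest divergent pair, 500.5 bp apart in an intron of Fam184b (chr5:45925574-45926325), joined a shared site to a ZT0-only site. The motif of its shared site was also below the stricter score.
convergent pair, first (chr2:75802661-75802679, plus strand): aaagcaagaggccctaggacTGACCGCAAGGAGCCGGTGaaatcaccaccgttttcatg
convergent pair, second (chr2:75803295-75803313, minus strand): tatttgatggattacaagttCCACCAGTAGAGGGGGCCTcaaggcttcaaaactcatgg
tandem pair, first (chr12:57782131-57782149, plus strand): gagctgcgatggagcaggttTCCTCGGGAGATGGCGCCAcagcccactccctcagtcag
tandem pair, second (chr12:57782712-57782730, plus strand): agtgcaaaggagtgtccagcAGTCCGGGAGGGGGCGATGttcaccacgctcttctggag
divergent pair, first (chr5:45925741-45925759, minus strand): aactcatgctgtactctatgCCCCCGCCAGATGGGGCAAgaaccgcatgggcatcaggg
divergent pair, second (chr5:45926242-45926260, plus strand): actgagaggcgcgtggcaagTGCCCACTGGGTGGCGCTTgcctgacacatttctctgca

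Across the timepoints, 1723 close sites were shared (56.0%, 54.2 to 57.7%), 1102 were ZT0-only (35.8%) and 253 ZT12-only (8.22%). Of the remaining union sites, 48.9% (47.8 to 50%) were shared. Where their nearest neighbour was at 10 to 20 kb, 52.6% (50.1 to 55.1%) were shared, an interval that overlaps that of the close sites. Where it was over 100 kb away, 42.6% (40.5 to 44.7%) were shared. As a share of each list, 61.0% of the close sites in the ZT0 list and 87.2% of those in the ZT12 list were shared, against 54.6% and 82.5% of the remaining sites. The positions that chose the close sites also define sharing, and no difference was tested.

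All sites were shared in 366 of 1158 pairs (31.6%), in 34 of 178 clusters of 3 (19.1%), in 6 of 42 clusters of 4, in 0 of 6 clusters of 5, in 1 of the 2 clusters of 9 and in the cluster of 12. Sites close to each other in the ZT0 list and also in the ZT12 list were found in 512 clusters (36.9%, 34.4 to 39.5%). In 674 clusters (48.6%, 46.0 to 51.2%) this held at ZT0 alone, in 127 (9.16%, 7.75 to 10.8%) at ZT12 alone, and in 74 (5.34%) sites were close only across the lists. By pairs, 560 of 1691 (33.1%, 30.9 to 35.4%) had both sites shared, against 26.0% (25.1 to 26.9%) of neighbours more than 10 kb apart. At 10 to 20 kb the share was 27.8% (25.1 to 30.7%). These shares of pairs and clusters depend on the share of single sites that were shared and on cluster size, and were not adjusted for either. Of the other close pairs, 642 joined a shared to a ZT0-only site, 147 a shared to a ZT12-only site, and 229 were ZT0-only at both sites. Another 101 joined a ZT0-only to a ZT12-only site, and 12 were ZT12-only at both.

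In mixed pairs the shared site was usually the wider one. Beside a ZT0-only neighbour it was wider in the ZT0 list in 442 of 641 pairs of unequal width (69.0%, 65.3 to 72.4%), with medians of 349 and 288 bp. Beside a ZT12-only neighbour it was wider in the ZT12 list in 100 of 147 pairs (68.0%, 60.1 to 75%), with medians of 299 and 253 bp. Its motif score was the higher one in 56.1% (52.2 to 59.9%) and 54.4% (46.4 to 62.3%) of these pairs, and the interval for the latter includes equal shares. Sites without a close neighbour differed in the same direction. In the ZT0 list, shared and ZT0-only sites had medians of 354.5 and 286 bp among close sites and 342 and 274 bp among the remaining ones. In the ZT12 list, shared and ZT12-only sites had medians of 299 and 252 bp among close sites and 292 and 249 bp among the remaining ones. Widths are those drawn by the peak caller, and the part of read depth in them was not tested.

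Orientation was also counted by sharing. Pairs with both sites shared were 58.7% tandem (54.6 to 62.8%), 28.2% divergent and 13.1% convergent over 550 pairs. Pairs with 1 site shared were 53.3% tandem (49.8 to 56.8%), 30.7% divergent and 16.0% convergent over 769 pairs. Pairs with neither site shared were 51.4% tandem (46.0 to 56.7%), 36.9% divergent and 11.7% convergent over 333 pairs. The intervals of these classes overlap for all 3 orientations, and pairs of the arrays count among the shared ones.

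The largest clusters of a single timepoint were of 3 sites. The most compact cluster listed at ZT0 alone lay upstream of Coro2b, a coronin that binds actin (chr9:62397688-62401465). Its sites were 280, 260 and 318 bp wide, all with minus-strand motifs. The cluster of 3 listed at ZT12 alone lay at the start of Myo1h, an unconventional myosin, and upstream of it (chr5:114759121-114765312). Its sites were 419, 373 and 300 bp wide, in the order minus, plus, plus. The Coro2b motifs all passed the stricter score, as did those at Myo1h.
Coro2b site 1 (chr9:62397816-62397834, minus strand): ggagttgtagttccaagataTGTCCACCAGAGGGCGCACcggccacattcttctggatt
Coro2b site 2 (chr9:62398603-62398621, minus strand): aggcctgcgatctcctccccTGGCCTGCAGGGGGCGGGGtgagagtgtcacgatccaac
Coro2b site 3 (chr9:62401309-62401327, minus strand): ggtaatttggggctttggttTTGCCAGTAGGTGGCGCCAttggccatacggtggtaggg
Myo1h site 1 (chr5:114759240-114759258, minus strand): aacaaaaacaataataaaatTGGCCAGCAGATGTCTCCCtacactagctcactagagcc
Myo1h site 2 (chr5:114762311-114762329, plus strand): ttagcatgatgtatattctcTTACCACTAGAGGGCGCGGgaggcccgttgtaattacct
Myo1h site 3 (chr5:114765180-114765198, plus strand): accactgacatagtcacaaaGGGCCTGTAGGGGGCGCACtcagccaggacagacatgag

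By annotation, 19.2% (17.8 to 20.6%) of close sites lay within 1 kb of a transcription start, and the same share, 19.2%, of the remaining sites did. Other exons held 6.60% (5.77 to 7.53%) of close sites against 4.76% (4.32 to 5.25%) of remaining sites. Of remaining sites with their nearest neighbour at 10 to 20 kb, 6.13% (5.04 to 7.43%) lay in such exons. Introns held 30.3% against 32.4%, and 43.9% against 43.6% lay between genes. Of the close pairs, 528 (31.2%) had both sites in 1 protein-coding gene, and 733 (43.3%) had no protein-coding gene at or between them. A protein-coding start lay between the sites in 314 pairs (18.6%), and a whole gene in 53 (3.13%). Both sites were at starts in 117 pairs (6.92%). Of 1010 neighbouring pairs 10 to 20 kb apart, 18.0% had both sites in 1 protein-coding gene, and 28.0% had none at or between them. A protein-coding start lay between 44.6% of these pairs and a whole gene between 18.9%, while 5.45% had both sites at starts. A wider gap can hold more genes, so such shares depend on spacing.

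Gene families and gene groups of liver were read against all 21418 autosomal protein-coding genes, of which 7919 (37.0%) had a CTCF site and 1760 (8.22%, 7.86 to 8.59%) a cluster in or within 10 kb of them. The counts are not adjusted for gene length, and no difference between lists was tested. Among 21 transcription factors of liver, 15 had a CTCF site and 4 a cluster (19%, 7.67 to 40%). Cebpb, which directs acute-phase and metabolic genes in hepatocytes, had 4 sites upstream, at chr2:167500670-167514549. The first 3 lay in introns of Tmem189 and the last 133 bp from the Cebpb start. The last 3 were shared, and the motifs pointed outwards in the order minus, minus, plus, plus. Onecut1, which encodes hepatocyte nuclear factor 6, held 3 sites at chr9:74714375-74719112, all ZT0-only and on the minus strand. Hnf4a, a nuclear receptor that maintains hepatocyte identity, had a tandem intronic pair 2.94 kb apart, with the first site shared and the other ZT0-only. The pair at the start of Foxa3 and in an intron of Sympk was tandem, 5.79 kb apart, again with 1 shared and 1 ZT0-only site. The Cebpb and Onecut1 motifs are printed because these clusters were the largest at these factors.
Cebpb side, site 1 (chr2:167500816-167500834, minus strand): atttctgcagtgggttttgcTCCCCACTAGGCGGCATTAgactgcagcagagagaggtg
Cebpb side, site 2 (chr2:167505624-167505642, minus strand): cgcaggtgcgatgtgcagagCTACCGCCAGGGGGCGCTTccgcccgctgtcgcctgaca
Cebpb side, site 3 (chr2:167510821-167510839, plus strand): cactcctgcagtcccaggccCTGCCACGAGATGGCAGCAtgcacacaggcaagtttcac
Cebpb side, site 4 (chr2:167514166-167514184, plus strand): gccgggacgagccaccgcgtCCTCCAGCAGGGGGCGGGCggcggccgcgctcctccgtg
Onecut1 site 1 (chr9:74714501-74714519, minus strand): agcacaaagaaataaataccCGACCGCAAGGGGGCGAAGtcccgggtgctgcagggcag
Onecut1 site 2 (chr9:74715843-74715861, minus strand): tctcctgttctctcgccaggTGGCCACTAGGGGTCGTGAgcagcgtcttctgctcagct
Onecut1 site 3 (chr9:74718958-74718976, minus strand): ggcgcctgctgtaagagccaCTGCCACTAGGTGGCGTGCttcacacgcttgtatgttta

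Of 49 imprinted genes, which are expressed from 1 parental chromosome, 8 had a cluster (16.3%, 8.51 to 29.0%). These genes shared 5 clusters, so they are not independent counts. Cdkn1c, a cyclin-dependent kinase inhibitor expressed from the maternal chromosome, and Slc22a18 had 3 shared, minus-strand sites between them at chr7:150649836-150656304. The first was 361 bp wide at ZT0 and 240 bp at ZT12, the second 350 and 361 bp, and the third 448 and 260 bp. The maternally expressed noncoding gene Meg3 had a convergent pair 0.908 kb apart at its 5′ end (chr12:110780166-110781431), with the first site shared and the second ZT0-only. The pair in H13, which surrounds the imprinted Mcts2, was tandem, 3.50 kb apart and ZT0-only at both sites. Slc22a3, together with the neighbouring Plg, had a convergent ZT0-only pair, and Commd1, with Zrsr1 inside it, had a divergent pair of 1 ZT0-only and 1 shared site.
Cdkn1c side, site 1 (chr7:150649981-150649999, minus strand): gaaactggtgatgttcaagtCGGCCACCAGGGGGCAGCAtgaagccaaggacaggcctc
Cdkn1c side, site 2 (chr7:150652399-150652417, minus strand): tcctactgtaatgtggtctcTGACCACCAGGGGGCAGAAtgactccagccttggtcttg
Cdkn1c side, site 3 (chr7:150656061-150656079, minus strand): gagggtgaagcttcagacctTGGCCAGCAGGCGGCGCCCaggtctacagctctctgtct
Meg3 site 1 (chr12:110780377-110780395, plus strand): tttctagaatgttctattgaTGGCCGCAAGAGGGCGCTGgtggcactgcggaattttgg
Meg3 site 2 (chr12:110781246-110781264, minus strand): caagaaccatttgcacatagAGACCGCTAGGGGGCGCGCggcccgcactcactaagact

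Of the 10 genes of cohesin and CTCF, 4 had a cluster (40%, 16.8 to 68.7%). Ctcfl, the germline paralog of CTCF, had 3 minus-strand sites, in an intron and beyond its 3′ end, of which the middle one was ZT0-only. Pds5b, a regulator of cohesin on chromatin, had a shared site 60 bp from its start that formed a divergent pair with a shared site at N4bp2l2, 7.78 kb away. Stag1, a cohesin subunit, had a shared site and a ZT0-only site without a motif match, 0.734 kb apart at starts within the gene. Upstream of Nipbl, which loads cohesin, a ZT0-only and a ZT12-only site formed a tandem pair 5.75 kb apart.

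Of 40 Hox genes, the patterning genes of the body axis, 23 had a site and 4 were near a cluster (10%, 3.96 to 23.1%), the same one for Hoxb5, Hoxb6, Hoxb7 and Hoxb8. It was a divergent pair of shared sites 8.49 kb apart, in an intron of Hoxb6 and at the start of Hoxb5, which puts the boundary between these genes inside the pair. The Hoxb6 match was CGGACGGTAGATGGCAGCA on the minus strand and the Hoxb5 match TCGCCGGGAGGTGGCGCGC on the plus strand.

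Of 42 genes of the major histocompatibility complex, which present antigens, 4 had a cluster (9.52%, 3.77 to 22.1%). The pairs at H2-T23 and at H2-T10 contained sites that were 91.5% identical, 79.0 kb from each other. The copy by H2-T23 was ZT12-only and 325 bp wide, and the copy by H2-T10 was shared, 262 bp wide at ZT0 and 221 bp at ZT12. The companion of the copy by H2-T23 was shared and 3.58 kb away, and that of the copy by H2-T10 was ZT12-only and 3.62 kb away. Capitals again mark the motif match.
H2-T23 side (chr17:36172453-36172471, minus strand): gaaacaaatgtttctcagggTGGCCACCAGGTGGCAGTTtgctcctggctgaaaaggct
H2-T10 side (chr17:36251405-36251423, minus strand): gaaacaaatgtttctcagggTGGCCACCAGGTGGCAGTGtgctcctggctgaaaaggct

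Genes of hepatocyte function were counted in the same way. Of 41 plasma protein genes, 3 had one (7.32%, 2.52 to 19.4%). The clotting gene Fgg had a divergent pair of shared sites upstream, 6.78 kb apart, and the site nearer to it lay 5.51 kb from its start. Plg, which encodes plasminogen, had a tandem pair upstream besides the convergent pair at its 3′ end. Vtn, which encodes vitronectin, had a convergent pair in the neighbouring Sarm1. Among 27 serpin a genes, Serpina3n had a cluster (3.70%, 0.657 to 18.3%), of 3 minus-strand sites beyond its 3′ end. Of 70 cytochrome P450 genes of families 2, 3 and 4, 4 had one (5.71%, 2.24 to 13.8%): Cyp2b19, Cyp2d22, Cyp2w1 and Cyp4f39. No cluster lay within 10 kb of the 20 UDP-glucuronosyltransferases (0 to 16.1%) or the 21 major urinary protein genes (0 to 15.5%). The 20 clock genes, 8 of which had a CTCF site, also had 0 clusters (0 to 16.1%). The interval of each of these lists includes the 8.22% of all genes. Intervals of the imprinted genes and of the cohesin and CTCF genes lay above that value. Those of the olfactory receptors, vomeronasal receptors and zinc finger genes, given next, lay below it. The intervals take no account of clusters shared between genes. Median gene length was 60.2 kb for the cohesin and CTCF genes and 21.0 kb for the imprinted genes, against 15.5 kb for all genes. It was 0.96 kb for olfactory receptors, 1.02 kb for vomeronasal receptors and 14.5 kb for zinc finger genes. The part of length in these shares was not tested.

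Other gene families were counted too. Among 1092 olfactory receptors, 25 had a site and 3 a cluster (0.275%, 0.0935 to 0.805%), and among 435 vomeronasal receptors 7 had a site and 0 a cluster (0 to 0.875%). Of 341 zinc finger genes, 77 had a site and 15 a cluster (4.40%, 2.68 to 7.13%). The closest of these pairs were 0.696 kb apart near Zfp580 and 0.716 kb apart at the start of Zfp341. Of 70 histone genes, 7 were near a cluster (10.0%, 4.93 to 19.2%), 5 of them near the same tandem pair beside Hist1h2bl. The 25 clustered protocadherins with 1 site (0 to 13.3%) and the 13 globin genes with sites at 2 (0 to 22.8%) had no cluster.

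In sequence, close sites were set beside the remaining ones. A match to the CTCF motif was found in 98.7% of close and 98.3% of remaining sites, and a match at the stricter score in 89.8% (88.6 to 90.8%) and 87.9% (87.2 to 88.6%). The consensus learned from the sites was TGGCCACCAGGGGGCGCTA. The lists are labelled as searched for motifs, and whether sites without one were removed is not given in the sources used here, so the presence of a motif may be a property of the lists. Windows 5 kb from close sites matched in 18.2% of cases and at the stricter score in 5.88%, and those 5 kb from the remaining sites in 13.6% and 3.08%. A window beside a close site can fall on its neighbour. Within a close site, 2 or more separate matches at the stricter score were found in 195 cases (6.34%, 5.53 to 7.25%), against 5.63% (5.15 to 6.15%) of remaining sites. Of remaining sites with their nearest neighbour at 10 to 20 kb, 6.90% (5.74 to 8.27%) had 2 or more. Median GC content over 200 bp was 54% for close and 52% for remaining sites. Close sites were wider, with medians of 326 against 308 bp at ZT0 and 291 against 283 bp at ZT12, while the quartiles of both groups overlapped. Remaining sites with their nearest neighbour at 10 to 20 kb were nearer to the close ones. Their median widths were 314 and 291 bp, their median GC content 53.5%, and 89.2% had a match at the stricter score. Where the nearest neighbour was over 100 kb away, the medians were 294 and 272 bp and 50% GC.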

How the data were processed

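CTCF ChIP-seq was carried out on 4 liver samples, 2 per timepoint. The authors mapped reads with Bowtie2 to NCBIM37 (mm9), filtered them by mapping quality with SAMtools, removed duplicates and called peaks with MACS2, which the deposited lists give as positions, 1 list per timepoint. The labels call them peaks from both replicates, searched for motifs, and how replicates were combined is not given in the sources used here.

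Regions overlapping by at least 1 bp were merged. Midpoint distances up to 10 kb made sites close. A weight matrix of 19 bp, started from the most enriched 12-mer of the sites and refined over 3 rounds on odd or even chromosomes, scored the other chromosomes at a score that background sequence reaches with a probability of 0.0001 per position (stricter: 0.00001). Genes were taken from GENCODE M1. Intervals are 95% Wilson intervals and cover counting error only. No test was made. Steps were tested on simulated data. Python 3.11.15, NumPy 2.4.6, SciPy 1.17.1, pysam 0.24.0 and SAMtools 1.23.1 were used.

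Named were the 12 largest clusters (ties by shorter span), the closest pair of each orientation, pairs on either side of 10 kb, the largest clusters of each sharing class, and up to 4 clusters per gene list. For imprinted genes all 5 clusters were named. The members and lists were chosen with earlier results of these data known. Alternatives changed the distance, lists, merging, overlap, motif score and annotation.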

Additional observations from a re-analysis of the deposited data

Results flagged for a closer look

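Chromosome X, which was left out of the union list, also held close sites. Of its 98 union sites, 17 lay within 10 kb of another (17.3%, 95% Wilson interval 11.1 to 26.0%), in 7 clusters of up to 3 sites. The clusters of 3 were nearest to Gm17326, Gm17297 and Gm17714, and the pairs to Zbtb33, Ids, BC023829 and Mid1. Of the 17 sites, 1 was shared between the timepoints (5.88%, 1.05 to 27.0%), and of all 98 sites 20 were (20.4%, 13.6 to 29.4%), a share within the interval of the close ones. The difference from the autosomes was not tested.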

How the results depend on the processing

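Of 61 values recomputed under alternatives, 43 lay within 1.5 times the count or within the interval reported, among them the convergent share under every alternative run, and all values without the 3 arrays. Some alternatives touched too few sites to move a count that far, such as leaving out the arrays (3048 close sites) or adding chromosome X (3095). Others were subsets of the same pairs, so the tally does not measure stability. Counts moved with the distance by construction: 1854 close sites in 869 clusters, 90 of them of 3 or more, within 5 kb, and 4629 close sites with 525 clusters of 3 or more within 20 kb. The shorter ZT12 list alone gave 1394 close sites in 646 clusters, 76 of 3 or more, and 57.3% tandem pairs. Tandem and divergent shares were 58.5% and 27.9% within 5 kb, 58.7% and 28.2% with both sites shared, and 51.2% and 33.9% in clusters of 2 alone, an alternative chosen after seeing the data, as was leaving out arrays or copies. The cause was not tested. Shared sites were 53.1% with an overlap of at least 50% of both regions. Sites at starts were 27.5% within 2 kb and 14.1% with protein-coding transcripts alone.

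No paired analysis was possible because replicates are pooled in each list, so leaving out a replicate was not run either. Read depth per site is unknown, and the lists do not say how strongly a missing site was bound.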

Other observations

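A pair of shared sites upstream of Col22a1, a collagen gene, was 100% identical over 100 bp on either side of convergent motifs, 2.02 kb apart at chr15:71878600-71880979, and was picked out after its values were seen. It is an inverted copy, whereas 13 of the 16 pairs of copies outside the arrays were tandem. The sequence is printed from both sites, with the motif match in capitals, to show the match on opposite strands.
Col22a1 side, first (chr15:71878755-71878773, plus strand): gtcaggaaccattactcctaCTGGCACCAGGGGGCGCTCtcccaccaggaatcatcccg
Col22a1 side, second (chr15:71880873-71880891, minus strand): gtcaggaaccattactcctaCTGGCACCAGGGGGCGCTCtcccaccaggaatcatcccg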
